A study of Homo sapiens with 12 samples.

Results

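The genes described here are 30 genes of cholesterol and fatty acid synthesis, chosen by symbol and read from the deposited gene table through their Ensembl IDs. Each symbol matched 1 of the 20286 gene IDs, and all 30 were among the 13512 genes with enough counts to be tested. They comprise 7 genes of the mevalonate pathway, 11 genes that turn its product into cholesterol, 6 genes that regulate the pathway or carry sterols, and 6 genes of fatty acid synthesis and desaturation. RNA was sequenced from HK-2 cells, an immortalised line of human kidney proximal tubule epithelium, in 12 libraries. The cells were kept for 48 h with one of 3 recombinant protein preparations, S100A8, S100A9 or S100A8/S100A9, each at 5 mg/mL as the labels write the dose, or with phosphate-buffered saline in the culture medium as control. The unit of that dose could not be checked. Each of the 4 groups held 3 libraries numbered 1, 2 and 3, so that each number occurred once in each group. The labels say neither that the replicates were separate cultures nor what a shared number stands for, so the p-values speak only of how far these samples spread, and that spread may be technical. All groups share the same cell line, and no genetic change beyond the line's own is named in the labels.

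Cholesterol is built from acetyl-CoA through mevalonate, isoprenoid diphosphates, squalene and a series of sterol intermediates. Its genes are known targets of the sterol regulatory element-binding proteins (SREBPs), transcription factors encoded by SREBF1 and SREBF2. SCAP escorts the SREBPs from the endoplasmic reticulum to be cut and released when sterols are scarce, and the INSIG proteins hold them back when sterols are plentiful. SREBF1 products are best known for the fatty acid genes and SREBF2 products for the sterol genes. Proximal tubule cells are known to take most of their energy from fatty acid oxidation, and lipid build-up is a known feature of injured tubules.

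Promoter windows were read for these genes because SREBPs act together with nuclear factor Y (NF-Y) and Sp1 at known target promoters. RefSeq windows on GRCh38.p14, running from 250 bases before to 50 bases after a transcription start, matched 26 of the 30 genes. FASN, ACAT2, SQLE and FDFT1 had no entry. The 4 sequences below are the 250 bases before the start, 5′ to 3′ on the gene's strand, with capitals marking matches to the NF-Y box (CCAAT) or to a sterol regulatory element (TCACNCCAC) on either strand. DHCR7 (chr11:71448394-71448643, minus strand) and LSS (chr21:46228775-46229024, minus strand) are shown because both were lower in libraries numbered 2. INSIG1 (chr7:155297628-155297877, plus strand) is shown because its difference between those libraries had the opposite sign. SREBF2 (chr22:41832855-41833104, plus strand) is shown because its window alone among the 26 genes held the sterol element.
DHCR7: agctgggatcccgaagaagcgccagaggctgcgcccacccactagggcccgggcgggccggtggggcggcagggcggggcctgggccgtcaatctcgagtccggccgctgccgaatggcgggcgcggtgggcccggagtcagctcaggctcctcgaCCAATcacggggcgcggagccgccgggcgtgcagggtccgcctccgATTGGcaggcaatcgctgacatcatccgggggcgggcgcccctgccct
LSS: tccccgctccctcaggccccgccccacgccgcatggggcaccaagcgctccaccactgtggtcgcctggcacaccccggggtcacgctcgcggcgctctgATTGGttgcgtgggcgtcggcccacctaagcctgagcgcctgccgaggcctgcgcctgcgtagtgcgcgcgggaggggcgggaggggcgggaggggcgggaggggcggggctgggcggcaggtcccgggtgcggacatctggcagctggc
INSIG1: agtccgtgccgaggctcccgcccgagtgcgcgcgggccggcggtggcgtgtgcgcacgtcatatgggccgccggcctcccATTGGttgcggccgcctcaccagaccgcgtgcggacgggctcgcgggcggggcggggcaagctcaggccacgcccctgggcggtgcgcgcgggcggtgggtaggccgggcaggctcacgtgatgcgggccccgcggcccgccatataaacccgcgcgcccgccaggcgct
SREBF2: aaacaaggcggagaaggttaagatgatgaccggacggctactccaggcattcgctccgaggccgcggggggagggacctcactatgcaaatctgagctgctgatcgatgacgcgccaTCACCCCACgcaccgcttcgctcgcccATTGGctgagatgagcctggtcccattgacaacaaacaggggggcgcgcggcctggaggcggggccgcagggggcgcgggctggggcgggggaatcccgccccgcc

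The letters of the NF-Y box were in the window of 19 of the 26 genes (73.1%), against 39.7% of all 27305 genes with a window. The sterol element in this spelling was in 1 of the 26 (3.85%), against 1.39% of all genes. The Sp1-type GC box (GGGCGG) was in 25 of the 26 (96.2%), against 48.3%. The E-box CACGTG was in 4 of the 26 (15.4%), against 8.77%. Both strands were searched, no motif's letters contain another's, and the shares count a gene once over all its windows. A match is a description of letters and not of a bound site. DHCR7 held 2 matches to the NF-Y box over its window, and LSS, INSIG1 and SREBF2 held 1 each.

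The pathway was expressed in every library. Levels between genes are compared in FPKM, the deposited value per gene length and library total, as mean ± SD over 12 libraries. SCD, the desaturase that makes oleate from stearate, was highest at 381 ± 11.8 FPKM, at the 99th percentile of the genes tested, and ranged from 365 to 403 FPKM. FDPS, which makes farnesyl diphosphate, followed at 140 ± 4.55 FPKM. FDFT1, which makes squalene, had 86.3 ± 3.17 FPKM and the methyl sterol oxidase MSMO1 had 84.8 ± 3.32 FPKM, a difference within their spread. SREBF2 had 30.7 ± 0.923 FPKM and SREBF1 22.2 ± 1.86 FPKM. INSIG1 had 67.1 ± 2.75 FPKM, whereas INSIG2 had 6.90 ± 0.941 FPKM. The lowest were ELOVL6, which lengthens fatty acids, at 5.98 ± 0.45 FPKM, and TM7SF2, a sterol reductase, at 4.86 ± 0.888 FPKM. CYP51A1 ranged from 61.5 to 70.8 FPKM, EBP, the sterol isomerase, from 62.9 to 74.5 FPKM, and the delta-5 desaturase FADS1 from 49.2 to 56.7 FPKM. The sterol desaturase SC5D ranged from 27.5 to 33.6 FPKM, the sterol carrier STARD4 from 29.5 to 36.1 FPKM and the dehydrogenase NSDHL from 17.4 to 20.1 FPKM. The kinases of the mevalonate pathway were lower, MVK at 11.9 to 14.1 FPKM and PMVK at 7.07 to 11.1 FPKM. Spread was small: the coefficient of variation of CPM (counts scaled to the library total) over the 12 libraries had a median of 5.71% in the 30 genes (3.12% for SREBF2 to 12.9% for HSD17B7), against 6.57% over all genes tested. The genes compared were not matched for their level.

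**Figure D1:**
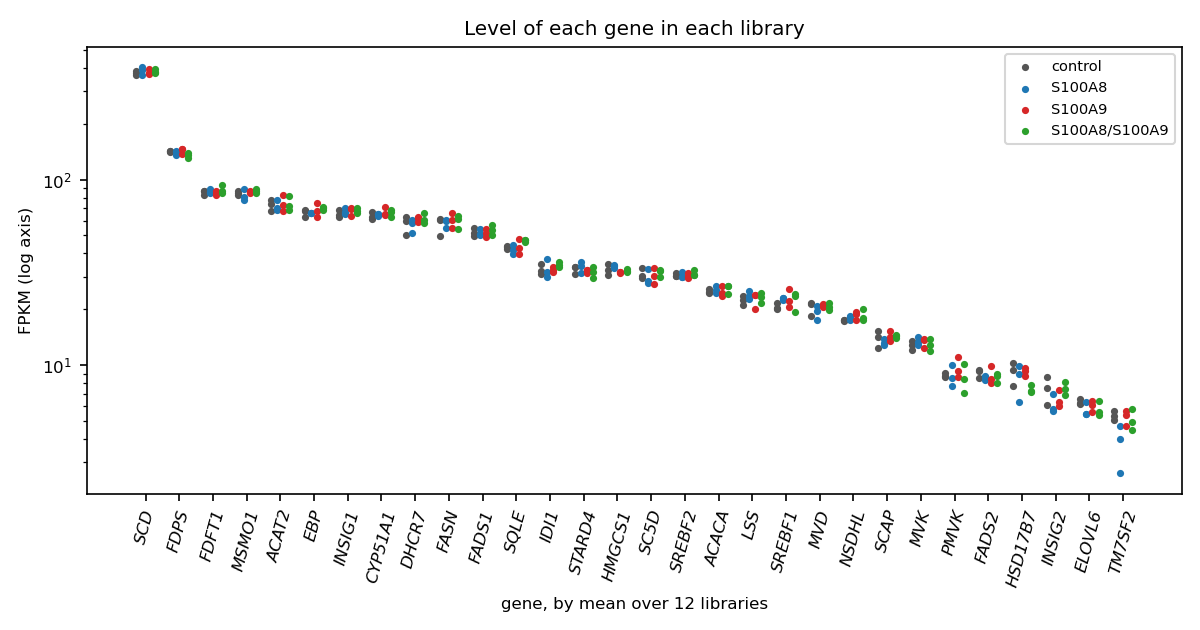
FPKM of each of the 30 genes in 12 libraries on a log axis, one point per library, with genes ordered by their mean. SCD stands at 365 to 403 FPKM, and TM7SF2 has the lowest mean, 4.86 FPKM.

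Library totals were 15882193 to 20748334 counts, and 15483 to 15653 genes had a count above 0. A count of 0 allows up to 3 counts, which is 0.145 to 0.189 CPM depending on the library. Such limits cover counting error only. The CPM of these limits and of the cell type markers are scaled to the library total alone. All other CPM values also use edgeR's TMM factors. Epithelial markers such as KRT8 (508 to 567 CPM) and PAX8 (275 to 366 CPM) were present. Of the defining genes of mature proximal tubule, ANPEP, LRP2, AQP1 and SLC34A1 reached at most 0.315 CPM in any library. CUBN and HNF4A reached at most 0.877 and 1.11 CPM, whereas GGT1 had 26.2 to 36.2 CPM. The adipocyte genes ADIPOQ and LEP were at 0 in all 12 libraries, and the hepatocyte gene ALB reached at most 0.117 CPM. The fibroblast list held LUM at 73.4 to 103 CPM, and the immune list CD68 at 79.4 to 100 CPM. In bulk RNA, fewer cells of a kind and less RNA per cell cannot be told apart.

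None of the 30 genes passed the test after any of the 3 proteins. With edgeR's quasi-likelihood test and Benjamini-Hochberg adjustment over 13512 genes, 0 of 30 were called in S100A8 against control, 0 of 30 in S100A9 against control and 0 of 30 in S100A8/S100A9 against control. Over all genes, 0.0074% (1 gene), 0.148% (20 genes) and 0% were called in these comparisons. At an unadjusted p under 0.05 the counts were 1, 2 and 0 of the 30, against 3.53%, 5.85% and 5.6% of all genes. These 3 comparisons share the control libraries. The median log2 difference of the 30 genes was -0.01 after S100A8, 0.02 after S100A9 and 0.04 after S100A8/S100A9, where the median of all genes lay within 0.001 of 0. DESeq2 and limma also called 0 of the 30 in each of the 3. Where the libraries of a treatment group or of a replicate number are said below to lie apart from others, this is description only. The share of all genes that separate in this way was not counted.

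In the mevalonate pathway, HMGCS1, which makes the precursor of mevalonate, had 114, 121 and 108 CPM in control libraries 1, 2 and 3. It had 121, 122 and 117 CPM after S100A8, 112, 112 and 108 CPM after S100A9, and 116, 113 and 112 CPM after S100A8/S100A9. Its S100A9 and its S100A8/S100A9 libraries lay below its S100A8 libraries, and each treated group overlapped the controls. MVD, which makes isopentenyl diphosphate, had 33.5, 28.8 and 32.0 CPM in control libraries and 27.8, 31.6 and 28.3 CPM after S100A8. It had 30.1, 31.2 and 31.6 CPM after S100A9 and 33.9, 32.5 and 32.5 CPM after S100A8/S100A9. In CPM the last group lay above both other treated groups and overlapped the controls, whereas in FPKM it overlapped all of them. FDPS had 178, 174 and 176 CPM in controls, 168, 174 and 177 CPM after S100A8, 181, 180 and 169 CPM after S100A9, and 174, 162 and 168 CPM after S100A8/S100A9. The S100A8/S100A9 libraries lay just below the controls, at most 173.8 against at least 174.0 CPM, and every other pair of groups overlapped.

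In the sterol branch, SQLE, the epoxidase that commits squalene to sterols, had 127, 123 and 124 CPM in control libraries and 125, 116 and 120 CPM after S100A8. It had 138, 116 and 126 CPM after S100A9 and 137, 130 and 132 CPM after S100A8/S100A9. The S100A8/S100A9 libraries lay above those of control and of S100A8. The log2 difference from control was 0.09 (95% interval -0.01 to 0.20) and did not pass (adjusted p = 0.898). TM7SF2 had 6.19, 6.33 and 6.85 CPM in control libraries and 5.96, 5.52 and 4.24 CPM after S100A8. It had 6.50, 6.28 and 6.97 CPM after S100A9 and 5.82, 6.16 and 5.55 CPM after S100A8/S100A9. Its log2 difference after S100A8 was -0.30 (-0.60 to -0.01), with an adjusted p of 1.00, and was -0.17 without S100A8 3. The S100A8 and the S100A8/S100A9 libraries both lay below the controls in CPM. For S100A8/S100A9 the margin was thin, at most 6.164 against at least 6.185 CPM, and in FPKM this group overlapped the controls. MSMO1 had 185, 180 and 180 CPM in controls, 189, 164 and 172 CPM after S100A8, 184, 185 and 182 CPM after S100A9, and 188, 182 and 190 CPM after S100A8/S100A9. HSD17B7, a sterol ketone reductase, had 7.59, 9.09 and 9.18 CPM in controls, 9.48, 6.63 and 9.46 CPM after S100A8, 9.30, 8.39 and 8.78 CPM after S100A9, and 7.96, 6.52 and 7.49 CPM after S100A8/S100A9. Of these, HSD17B7 separated S100A8/S100A9 from S100A9, while the groups of MSMO1 overlapped in each comparison with S100A8.

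Among the regulators, SREBF1 had 81.4, 83.2 and 89.3 CPM in control libraries. It had 87.7, 92.1 and 94.0 CPM after S100A8, 85.0, 92.9 and 98.7 CPM after S100A9, and 95.9, 84.9 and 91.5 CPM after S100A8/S100A9. Each treated group overlapped the controls. Its log2 difference was 0.11 (-0.01 to 0.22), 0.12 (0.01 to 0.24) and 0.10 (-0.01 to 0.22) in the 3 arms, with adjusted p from 0.817 to 1.00. SREBF2 had 159, 158 and 163 CPM in controls, 157, 155 and 167 CPM after S100A8, 165, 159 and 156 CPM after S100A9, and 172, 160 and 161 CPM after S100A8/S100A9. INSIG1 had 163, 180 and 163 CPM in controls, 178, 178 and 169 CPM after S100A8, 165, 183 and 177 CPM after S100A9, and 168, 181 and 181 CPM after S100A8/S100A9. The groups of both genes overlapped. Exons of SREBF1 share 556 of their 8030 bases with RAI1, on the opposite strand. Without strand, reads there may be counted for either gene.

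Among the fatty acid genes, FADS2, the delta-6 desaturase of polyunsaturated fatty acids, had 22.4, 20.0 and 24.5 CPM in control libraries and 20.7, 20.6 and 19.2 CPM after S100A8. It had 19.7, 19.9 and 19.5 CPM after S100A9 and 22.7, 20.7 and 22.6 CPM after S100A8/S100A9. In CPM the S100A9 libraries lay below those of control and of S100A8/S100A9, at most 19.92 against at least 20.0 CPM in controls. In FPKM these groups overlapped. The difference from control was -0.18 on the log2 scale (-0.35 to -0.01), with an unadjusted p of 0.0347 and an adjusted p of 0.81. It was -0.11 without control 3, and -0.05 with limma on log2(FPKM + 1). FADS2 shares 490 exon bases with FADS1 on the opposite strand, and the counting is not stated to use strand. SCD had 1959, 1924 and 2011 CPM in controls, 1907, 2034 and 2110 CPM after S100A8, 1958, 1970 and 2070 CPM after S100A9, and 2007, 1973 and 2075 CPM after S100A8/S100A9. Its groups overlapped, and its log2 differences from control lay between 0.03 and 0.04.

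**Figure D2:**
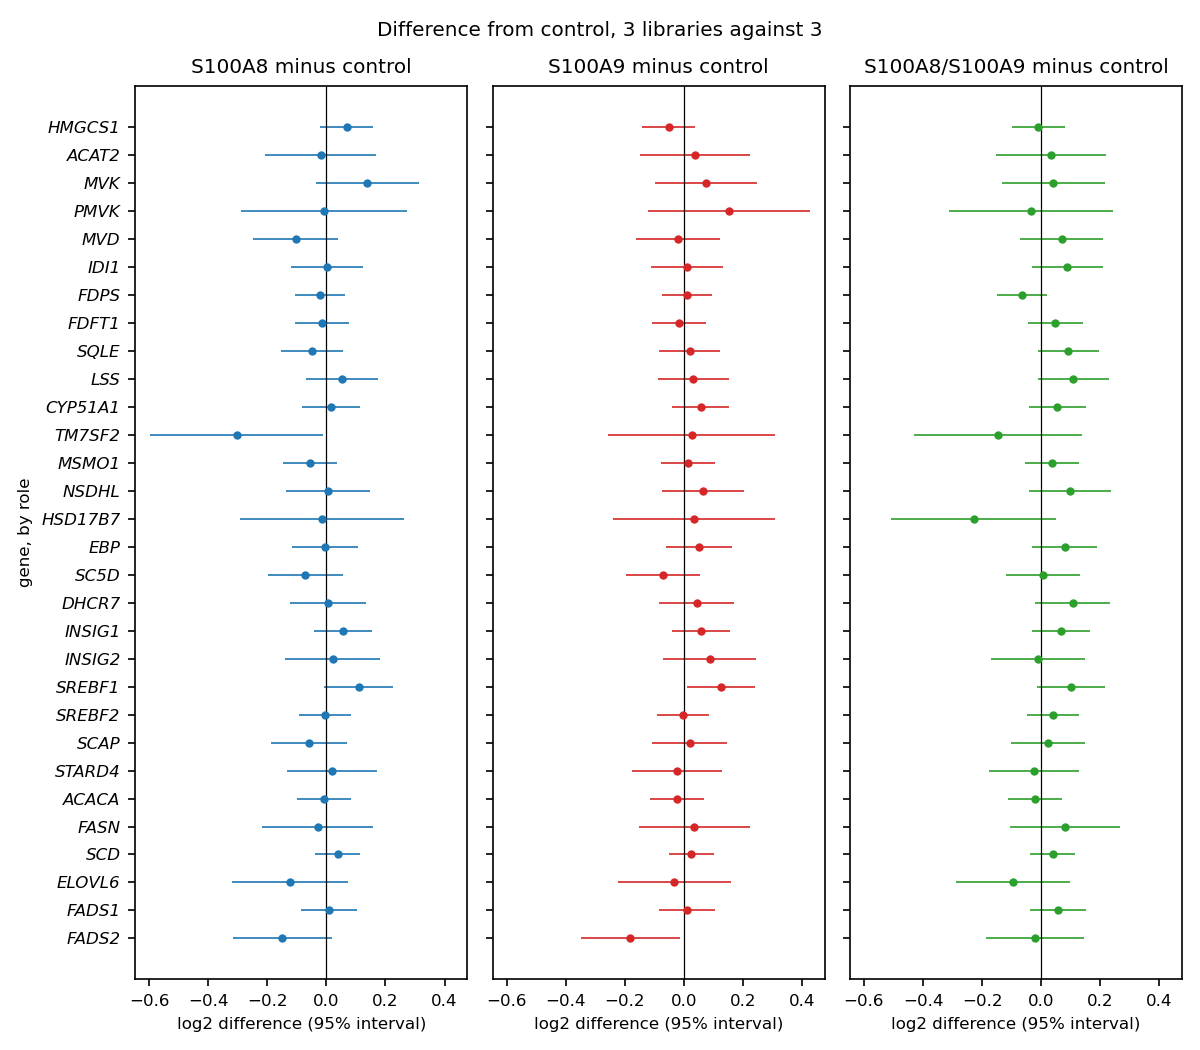
Log2 difference from control of the 30 genes in each of the 3 arms, with 95% intervals from edgeR, 3 libraries against 3. No gene passed at an adjusted p of 0.05, and the point estimates ranged from -0.30 (TM7SF2 after S100A8) to 0.15.

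Direct comparisons of the 3 treated arms also called none of the 30 genes. The counts were 0 of 30 in S100A9 against S100A8, where 0.185% of all genes were called, 0 of 30 in S100A8/S100A9 against S100A8 (0%), and 0 of 30 in S100A8/S100A9 against S100A9 (0.252%). At an unadjusted p under 0.05 the counts were 2, 3 and 0 of the 30, against 7%, 4.43% and 7.15% of all genes. HMGCS1 was -0.12 on the log2 scale in S100A9 against S100A8, with the smallest adjusted p of these comparisons, 0.528. TM7SF2 was 0.33 (0.04 to 0.62) in the same comparison, with an adjusted p of 0.678, and 0.20 to 0.43 with 1 library left out. SQLE was 0.14 (0.04 to 0.24) in S100A8/S100A9 against S100A8, with an adjusted p of 0.98. MVD had a log2 difference of 0.17 there and MSMO1 of 0.09, and neither passed. HSD17B7 was -0.26 and FDPS -0.07 in S100A8/S100A9 against S100A9, again without passing. A test of any difference among the 4 groups, with the replicate number in the model, called 0 of 30, against 0.533% of all genes. FASN (F = 4.10), SQLE (F = 4.07) and HMGCS1 (F = 3.04) had the smallest p there, with adjusted p of 0.363 at the lowest. At an unadjusted p under 0.05 the count was 3 of 30, against 9.47% of all genes.

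Some of the 30 genes passed by replicate number. A test of any difference among the numbers 1, 2 and 3, adjusted for treatment group, called 3 of the 30 genes, against 2.59% of all genes. They were FASN (F = 29.1, adjusted p = 3.8e-05), ACAT2 (F = 21.6, adjusted p = 0.000353) and DHCR7 (F = 8.76, adjusted p = 0.043). Number 2 against number 1 called 5 of the 30, all lower, where 2.33% of all genes were lower and 1.89% higher (4.22% in all). Number 3 against number 2 called FASN alone, which was higher, where 0.407% of all genes were higher and 0.155% lower (0.562% in all). Number 3 against number 1 called 0 of 30, where 0.0148% (2 genes) were, a count that was 40 without S100A8/S100A9 1. At an unadjusted p under 0.05, 12 of the 30 passed over all numbers (14.1% of all genes), 13 in 2 against 1 (17.8%), 4 in 3 against 1 (5.82%) and 7 in 3 against 2 (10.3%). The numbers are labels without an order. FASN and ACAT2 passed in number 2 against 1 whichever library was left out, but the count of 5 rested on single libraries. It was 2 without control 2 or without S100A8 2, and 3 without control 1, S100A9 1 or S100A9 2. The test over all 3 numbers lost DHCR7 in 9 of 12 such fits and called 5 without S100A8/S100A9 1. With limma on log2(FPKM + 1) it called ACAT2 and neither DHCR7 nor FASN (adjusted p of FASN = 0.0727). The calls over all genes moved as well with 1 library left out, from 350 over the numbers to between 132 (without S100A9 2) and 516 (without S100A8/S100A9 1), and from 570 in 2 against 1 to between 244 (without S100A9 1) and 718 (without S100A8/S100A9 1).

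FASN, the synthase that builds palmitate, had 462, 395 and 457 CPM in control libraries 1, 2 and 3 and 442, 401 and 443 CPM after S100A8. It had 457, 411 and 477 CPM after S100A9 and 496, 419 and 473 CPM after S100A8/S100A9. All 4 libraries numbered 2 lay below the other 8, whatever the treatment, and the share of all genes that do so was not counted. The mean of FASN was 464 ± 22.6 CPM in libraries numbered 1, 407 ± 10.8 CPM in those numbered 2 and 463 ± 15.5 CPM in those numbered 3 (SD, n = 4). The log2 difference was -0.19 (SE 0.03, edgeR adjusted p = 4.98e-05) for 2 against 1 and 0.19 (SE 0.03, adjusted p = 0.000423) for 3 against 2. With limma on log2(FPKM + 1) the second did not pass (adjusted p = 0.145).

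ACAT2, the cytosolic thiolase that opens the mevalonate pathway, had 117, 102 and 113 CPM in control libraries and 117, 104 and 106 CPM after S100A8. It had 126, 104 and 111 CPM after S100A9 and 125, 104 and 110 CPM after S100A8/S100A9. Here too the 4 libraries numbered 2 lay below the other 8. The difference of 2 from 1 was -0.23 (SE 0.04, edgeR adjusted p = 8.8e-05), and that of 3 from 1 was -0.14 (adjusted p = 0.155). Of the 4299 exon bases of ACAT2, 1141 are shared with SOD2 and 397 with TCP1, both on the opposite strand, so that without strand the reads there cannot be told apart. In number 2 against 1, SOD2 differed by 0.04 (adjusted p = 0.538) and TCP1 by -0.01 (adjusted p = 0.927). After S100A9, SOD2 rose by 0.83 on the log2 scale (adjusted p = 2.12e-13) while ACAT2 differed from control by 0.04 (-0.15 to 0.22).

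DHCR7, the last reductase of cholesterol synthesis, had 134, 115 and 135 CPM in control libraries and 133, 119 and 133 CPM after S100A8. It had 134, 125 and 136 CPM after S100A9 and 147, 134 and 131 CPM after S100A8/S100A9. Number 2 was the lowest in each group but S100A8/S100A9, and number 2 against 1 gave -0.15 (SE 0.04, adjusted p = 0.0158). LSS, the cyclase that forms lanosterol, had 82.4, 76.7 and 83.8 CPM in controls, 89.9, 78.5 and 83.8 CPM after S100A8, 85.5, 77.1 and 86.0 CPM after S100A9, and 93.9, 84.5 and 83.3 CPM after S100A8/S100A9. It gave -0.15 (SE 0.04, adjusted p = 0.0241), with the libraries of the 2 numbers overlapping across groups. SQLE, whose values stand above, gave -0.12 (SE 0.04, adjusted p = 0.049). DHCR7 lost its call in number 2 against 1 without control 1, control 2 or S100A8 2. LSS lost it without control 2, S100A8 1, S100A8 2, S100A9 1, S100A9 2 or S100A8/S100A9 1. SQLE passed in 2 of the 12 such fits, those without S100A8/S100A9 1 or S100A8/S100A9 3.

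**Figure D3:**
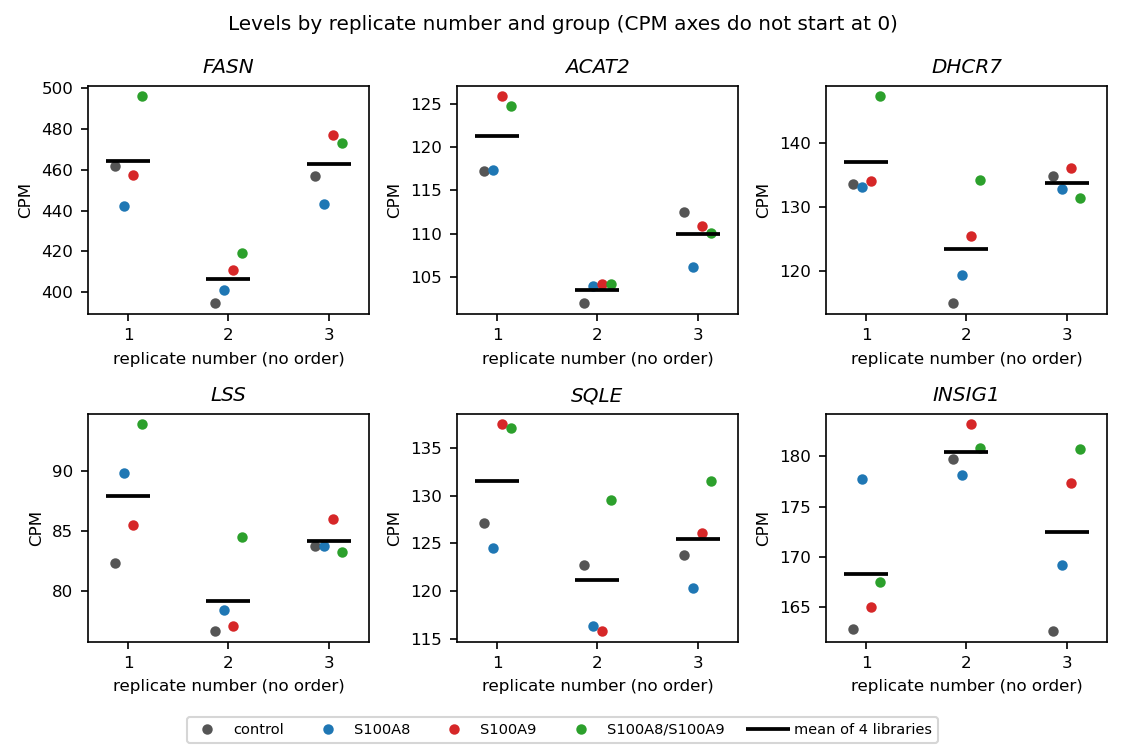
CPM of the 5 genes called in number 2 against 1 and of INSIG1, one panel per gene, one point per library coloured by treatment, a bar for the mean of 4 libraries, and the replicate number on the horizontal axis. The CPM axes do not start at 0. For FASN and ACAT2 the 4 points at number 2 lie below the other 8, and the share of all genes that do so was not counted.

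Over all genes tested, 6726 of 13512 had an estimate below 0 in number 2 against 1, and 4.22% were called. All 11 genes of the sterol branch had an estimate below 0 there, with a median of -0.11, and 3 of them passed. Of the 7 mevalonate genes 4 were below 0 and 1 passed, of the 6 regulators 4 were below 0 and 0 passed, and of the 6 fatty acid genes 4 were below 0 and 1 passed. Over the 30 genes, 23 were below 0 with a median of -0.06, against a median of 0.00 over all genes. CYP51A1, the lanosterol demethylase, had -0.11 and just missed the threshold (adjusted p = 0.0515). Most of its exon bases, 2844 of 3584, are shared with another annotated gene on the same strand. IDI1, the isopentenyl diphosphate isomerase, had -0.12 and SCAP -0.11, and neither passed. INSIG1 had the opposite sign, 0.10 (0.03 to 0.17, adjusted p = 0.0968). Its libraries numbered 2, at 178 to 183 CPM, were above those numbered 1, at 163 to 178 CPM, in each group. Signs leaned one way between several arms as well. Against control, 13 of the 30 genes were above 0 after S100A8, 21 after S100A9 and 20 after S100A8/S100A9 (sterol genes 4, 9 and 9 of 11). Against S100A8 it was 22 after S100A9 and 21 after S100A8/S100A9 (sterol 9 and 10). S100A8/S100A9 against S100A9 had 19 (sterol 8). Over all genes, 6662 to 6785 of 13512 were above 0 in these 6 comparisons.

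Within each treatment group, number 2 was below number 1 for 21 of 30 genes in control, 18 after S100A8, 20 after S100A9 and 23 after S100A8/S100A9. Lower in all 4 groups were 9 of the 30, where 12.3% of all genes were: ACAT2, IDI1, SQLE, LSS, CYP51A1, DHCR7, SREBF2, SCAP and FASN. Higher in all 4 groups were INSIG1 and ELOVL6, where 12.4% of all genes were. Against number 2, number 3 was higher in all 4 groups for 9 of the 30, where 10.1% of all genes were, and lower for 2, where 9.72% were. Against number 1, it was lower in all 4 groups for 4 of the 30, where 6.4% of all genes were, and higher for 1 (SCD), where 6.78% were. ACACA, the carboxylase that makes malonyl-CoA, was 0.10 and SCAP 0.15 in number 3 against 2, without passing (adjusted p = 0.178 and 0.122). ACACA had 201, 194 and 205 CPM in controls, 195, 196 and 207 CPM after S100A8, 196, 190 and 206 CPM after S100A9, and 204, 185 and 202 CPM after S100A8/S100A9. SCAP had 57.0, 50.7 and 60.0 CPM in controls, 54.2, 52.2 and 54.9 CPM after S100A8, 56.9, 53.5 and 60.0 CPM after S100A9, and 58.7, 53.4 and 58.4 CPM after S100A8/S100A9. SCAP was lowest in the library numbered 2 of every group. Against number 1, number 3 gave IDI1 at -0.10 and SCD at 0.08, and neither passed. IDI1 had 80.5, 73.9 and 71.6 CPM in controls, 83.6, 69.2 and 73.5 CPM after S100A8, 78.4, 75.9 and 73.3 CPM after S100A9, and 80.3, 77.8 and 82.0 CPM after S100A8/S100A9.

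**Figure D4:**
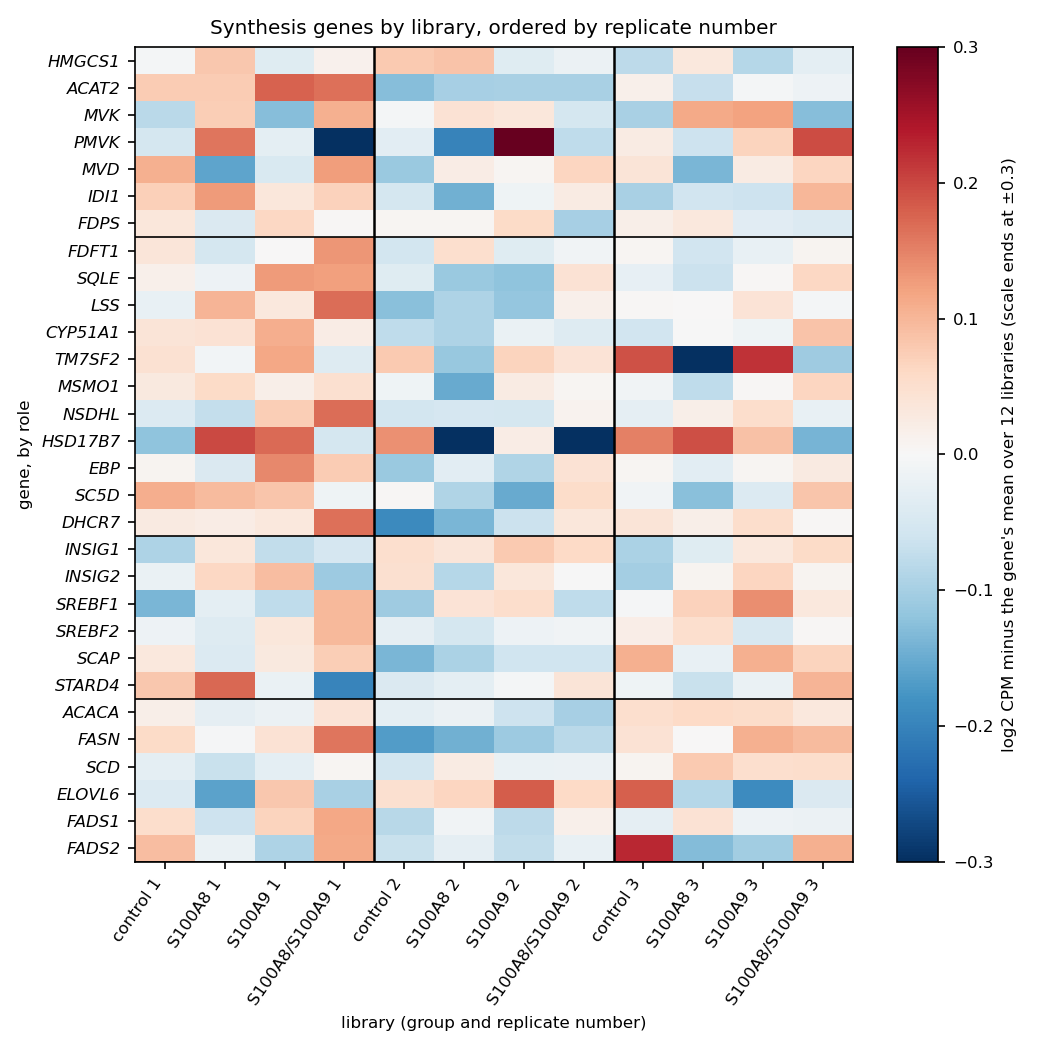
Heat map of each gene's deviation from its own mean over 12 libraries (log2 CPM), genes in rows by role and libraries in columns by replicate number. FASN and ACAT2 are below their means in all 4 libraries numbered 2, and INSIG1 is above its mean there.

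Over the whole set, each library's median deviation from the genes' own means lay between -0.01 and 0.07 on the log2 scale in libraries numbered 1, between -0.05 and -0.01 in those numbered 2, and between -0.01 and 0.03 in those numbered 3. By treatment it lay between -0.05 and 0.02 in control, between -0.05 and -0.01 after S100A8, between -0.02 and 0.03 after S100A9 and between -0.01 and 0.07 after S100A8/S100A9. The highest was S100A8/S100A9 1, where 8 of 30 genes were below their mean, and the lowest were S100A8 2 and control 2, where 21 and 22 were. Neither the numbers nor the treatments separated fully.

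Each gene's variance over the 12 libraries was divided between treatment (3 degrees of freedom), replicate number (2) and the rest (6). The median share of replicate number was 27.9% in the 30 genes and 18.5% over all genes tested, and that of treatment was 22.9% and 25.8%. Per degree of freedom, replicate number had the larger part in 20 of the 30 genes (66.7%), against 51.9% of all genes. The count was 15 of 30 without S100A9 1 and 17 without S100A8 3 or S100A8/S100A9 2. By role this held for 9 of 11 sterol genes, 5 of 6 fatty acid genes, 4 of 6 regulators and 2 of 7 mevalonate genes. ACAT2 had 88.7% of its variance by replicate number, FASN 78.4%, ACACA 73.3%, SCAP 69.8% and SCD 62.5%. The shares of treatment were highest in TM7SF2 (56.9%), HMGCS1 (56.7%) and FADS2 (52.2%), none of which passed a test between groups. STARD4, a sterol carrier, had 95.2% in neither. These shares are descriptions, and leaving out 1 library at a time moved the set's median share of replicate number between 22.0% and 34.6% and that of treatment between 17.3% and 31.5%. These ranges overlap.

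**Figure D5:**
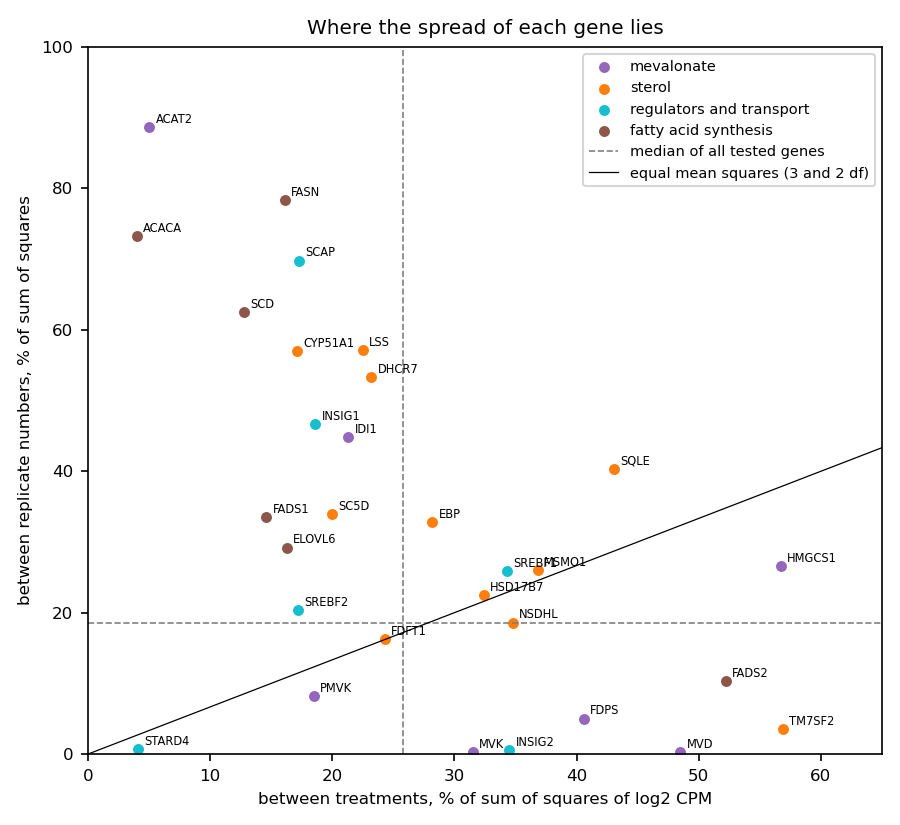
Share of each gene's variance over 12 libraries (percent of the sum of squares of log2 CPM) by treatment (horizontal) and by replicate number (vertical), one point per gene coloured by role, with dashed lines at the medians of all genes tested and a solid line where both have equal mean squares. ACAT2 (88.7% by replicate number) and FASN (78.4%) are at one end, and TM7SF2 and HMGCS1 (56.9% and 56.7% by treatment) at the other.

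The sum of the epithelium list was lower, and that of the immune list higher, in the 4 libraries numbered 2 than in those numbered 1, with no overlap. Summed epithelial markers, of which 11 of 15 were tested, had 1660 to 1780 CPM in libraries numbered 1, 1560 to 1650 CPM in those numbered 2 and 1620 to 1680 CPM in those numbered 3. Summed immune markers, most of it CD68, had 80.3 to 89 CPM, 91.9 to 100 CPM and 80.1 to 90.2 CPM. Summed fibroblast markers, most of it LUM, had 97.8 to 103 CPM, 80.8 to 98 CPM and 91.1 to 110 CPM, and overlapped. The endothelial, hepatocyte and adipocyte sums reached at most 3.07, 0.585 and 0.466 CPM. PTPRC, which marks blood cells, reached at most 0.116 CPM. The part of these markers in the result was not tested. The log2 difference of 2 from 1 had a Pearson correlation of -0.06 with the GC content of transcripts and of 0.01 with their length, across 13484 genes that are not independent replicates. The 30 genes had a median GC content of 50.1%, against 48.2% over all genes. With an offset for GC and length in each library, an alternative chosen after seeing the data, 9 of the 30 passed in number 2 against 1, while the calls over all genes went from 570 of 13512 to 868 of 13484.

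Neighbouring pathways were read from lists of other genes. None of their tested members passed in any arm against control. In number 2 against 1, where 4.22% of all genes were called (1.89% higher and 2.33% lower), the lists had 0 to 4 calls each. There, 2 of 11 genes of SREBP processing and sterol-sensing degradation passed, and both were higher: MBTPS2, the protease that makes the second cut in SREBPs, by 0.15 (edgeR adjusted p = 0.0289) and ERLIN2 by 0.16 (adjusted p = 0.0272). Of 12 genes of sterol efflux, storage and lysosomal transport, 1 passed: ABCA1, which exports cholesterol, was higher by 0.19 (adjusted p = 0.0141). Of 11 genes of the isoprenoid branches 0 passed. Of 26 genes of acetyl-CoA supply and other lipogenic steps 4 passed, 3 lower and 1 higher. ACSS2, which makes acetyl-CoA from acetate, was at -0.19 (adjusted p = 0.00304), MLXIP, a glucose-responsive transcription factor, at -0.22 (adjusted p = 0.00026), and ACACB, the mitochondrial form of the carboxylase, at 0.31 (adjusted p = 0.00734). ACSL1 was the other lower gene, at -0.20. Of 19 genes of fatty acid oxidation 2 passed, PPARA at -0.20 (adjusted p = 0.0094) and ACADVL at 0.14 (adjusted p = 0.0427).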

How the data were processed

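The authors' single table of genes gives, per the file headers, counts and FPKM in each of 12 HK-2 libraries. As deposited, the counts are expected counts (estimated reads, 12.0% of them not whole), and the FPKM were scaled by the authors to gene length and library total. Which aligner and counter were used is not given in the sources used here. GRCm38 and mm10, both mouse builds, stand in the submitters' processing notes, but the IDs are human, and the build behind the counts is not known. Exon overlaps come from GENCODE release 29 on GRCh38, and 20228 of 20286 IDs were named from a table of gene names, 50 from GENCODE.

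Counts were rounded, filtered with filterByExpr (minimum 10), scaled by TMM and fitted with the robust quasi-likelihood model of edgeR 4.0.16 in R 4.3.3 on all 12 libraries. Comparisons of arms used group alone (8 residual degrees of freedom). The tests over all groups and over replicate numbers used group plus replicate number (6 residual degrees of freedom). Tests were two-sided, adjusted by Benjamini-Hochberg over 13512 genes, with a threshold of 0.05. Variance shares used log2 CPM (prior count 2).

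The members and lists were chosen with earlier results of these data known. Described in full are HMGCS1, SQLE, INSIG1, SREBF1, SREBF2, FASN and SCD, the members past the threshold and the 3 of smallest p in each comparison, and from each related list at most 3 members past the threshold. Other genes were named after their values were seen. Alternatives were the replicate number as a block, DESeq2 1.42.0 and its size factors, no filter, the 6 compared libraries alone, limma 3.58.1 on log2(FPKM + 1) and each library left out. Added after seeing the data were an offset for GC content and length and each group left out. The procedure was also run on simulated counts with known changes, and the outcome is not given here.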

Additional observations from a re-analysis of the deposited data

How the results depend on the processing

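The count of 0 of 30 genes in each comparison of arms, and in the test over the 4 groups, held under every alternative run and with each library left out. In number 2 against 1 (5 genes) the count was 3 with DESeq2, 2 with limma on log2(FPKM + 1), 9 with the GC and length offset, 2 without the control group and 2 without the S100A9 group, and 2 to 7 with 1 library left out. In 3 against 2 (1 gene) it was 0 with limma, 2 without the S100A8/S100A9 group, and 1 to 2 with 1 library left out. In 3 against 1 (0 genes) it was 1 with the offset. Over all numbers (3 genes) it was 6 with the offset, 1 with limma, and 2 to 5 with 1 library left out. The median variance share of replicate number was 33.3% on log2(FPKM + 1), and 22.0% to 34.6% with 1 library left out, and that of treatment 17.3% to 31.5%. FADS2 in S100A8/S100A9 against S100A9 turned from 0.16 to -0.024 with limma on log2(FPKM + 1). The cause was not tested. Depth was lowest for TM7SF2, HSD17B7 and PMVK, at a mean of 6.03, 8.32 and 8.97 CPM.

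Counts over all genes moved too. With limma they were 14 over the 4 groups (72 in edgeR), 44 over the numbers (350), 115 in 2 against 1 (570) and 8 in 3 against 2 (76), and with the offset 216, 590, 868 and 155. DESeq2 gave 224 over the numbers and 338 in 2 against 1. Without the filter the counts were 112 over the 4 groups and 13 in 3 against 1 (2), where leaving out the S100A8/S100A9 group gave 72. With 1 library left out they were 41 to 161 over the 4 groups, 132 to 516 over the numbers, 244 to 718 in 2 against 1, 22 to 141 in 3 against 2 and 1 to 40 in 3 against 1.

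With the replicate number as a block, each comparison of arms called 0 of the 30 genes, and over all genes 42 in S100A9 against control (20 without), 69 in S100A9 against S100A8 (25) and 71 in S100A8/S100A9 against S100A9 (34). Without the replicate block, the test over the 4 groups called 30 genes among all those tested (72 with it), and 0 of the 30 described here. Deviations from the group means of same-numbered libraries correlated at -0.07 to 0.15 across genes in 18 pairs, over 0.1 in 2 of them, against -0.16 to 0.10 in 36 other pairs. For 8 of the 12 libraries, the mean correlation with libraries of the other groups was highest for their own number. Same-numbered pairs correlated at -0.04 to 0.09 for number 1, 0.06 to 0.15 for number 2 and -0.07 to 0.08 for number 3. That some same-numbered libraries resemble each other is thus a hint from the data and not from the design. The hint is clearest for number 2, and what a shared number stands for remains unknown.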
